A study of Mus musculus with 21 samples.

Results

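The genes described here are 32 genes of cholesterol and fatty acid synthesis, with the regulators that switch them, in the mouse brainstem after the facial nerve was cut. They were taken by symbol from the 45664 gene rows of the count table, of which 22294 had enough counts to be tested. All 32 were found, and all 32 passed the filter, a summed count above 29 over the 21 libraries. By role, 7 encode the steps from acetyl-CoA to farnesyl diphosphate (the mevalonate steps), 3 make squalene and lanosterol, 8 turn lanosterol into cholesterol, 5 form the SREBP control circuit, 1 (Stard4) carries sterol between membranes, and 8 make, elongate or desaturate fatty acids.

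The tissue was the ventral pons, the piece of brainstem that holds the facial nucleus, of C57BL/6 mice of the transgenic line CX3CR1GFP/wt. In this line 1 copy of the gene of a microglial receptor carries a green fluorescent protein, and every group, the baseline included, has this allele. The groups were the lesion side (right) and the contralateral side (left) at days 7, 14 and 30 after the right nerve was cut at the stylomastoid foramen, and the left pons of unoperated mice at day 0, with 3 libraries in each of the 7 groups. Mice were operated at 8 weeks of age and were 9, 10 and 12 weeks old at days 7, 14 and 30, and the unoperated mice were 8 weeks old. The side of the body therefore changes with the lesion, both between the sides and against day 0, and cannot be told apart from it. The contralateral and the unoperated pons are both left, so the side is the same between them. In every comparison with day 0 the age and the operation change with the group and cannot be told apart from it. The labels do not say whether the 3 libraries of a group came from separate animals, so the p-values measure the spread between these libraries.

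Cholesterol does not pass from blood into brain in useful amounts, so the brain makes its own, chiefly in oligodendrocytes, which need it for myelin, and in astrocytes. The whole set is switched together in most cells: when membranes are poor in sterol, the carrier protein SCAP takes the membrane-bound factors SREBP-1 and SREBP-2 to the Golgi for cleavage, and the freed parts enter the nucleus and turn on synthesis genes, while INSIG proteins hold the complex back when sterol is plentiful. SREBP-2, from Srebf2, acts mainly on sterol genes and SREBP-1, from Srebf1, mainly on fatty acid genes. When the facial nerve is cut, the motor neurons of the facial nucleus on that side switch to regrowth or die, and microglia multiply around them.

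The 18 operated libraries held between 17358868 and 29827291 counts each, and the 3 unoperated ones between 35874913 and 41448945. The column headers carry 1 lane number for days 0 and 7, another for day 14 and another for day 30, so the sides of a day always had the same lane number. Days 0 and 7 also repeat 2 index sequences under that number, so they were not in 1 lane of the same run. At day 30 the letters for left and right in the count columns contradict the labels, and the columns were assigned as the sample descriptions state. The direction of every day 30 side difference rests on that assignment. The second lesion library of day 14 stood apart, with 2.81% of its counts from mitochondrial genes, the lowest of its group, which reached 4.48%, and below the contralateral libraries of that day at 4.48 to 4.76%. The third lesion library of day 7 held choroid plexus RNA, a summed 4580 CPM of 6 marker genes, against 51 and 64.5 CPM in the other 2 of its group. Motor neuron markers summed to between 218 and 488 CPM in every library, so RNA of such markers was present in all. The filament gene Prph supplied 158 CPM of the lesion mean of 269 CPM at day 7, and 91.8 of 276 CPM at day 0. The sum therefore does not show that the same tissue was captured in each library. In this bulk tissue, fewer cells of a type and less RNA per cell cannot be told apart.

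Levels differed widely between members. Per kilobase of exon, the day 0 level was highest for Scd2, the main stearoyl-CoA desaturase of mouse brain, at 609 ± 41 CPM per kb (SD, n = 3), followed by Hmgcs1, the HMG-CoA synthase of the cytosol, at 137 ± 8.4, and Scd1, a second stearoyl-CoA desaturase, at 119 ± 5.3. Fads3, a desaturase that acts on the sphingoid base of ceramides, was rank 26 of 32 at 9.53 ± 0.44 CPM per kb. The lowest members were Fdps, farnesyl diphosphate synthase, at 2.53 ± 0.34, and Idi1, isopentenyl diphosphate isomerase, at 0.582 ± 0.071 CPM per kb, with 1169 counts in all over the 21 libraries. Idi1 also shares 25.3% of its possible 50-base reads with other annotated transcripts, so its changes could be measured least well.

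**Figure D1:**
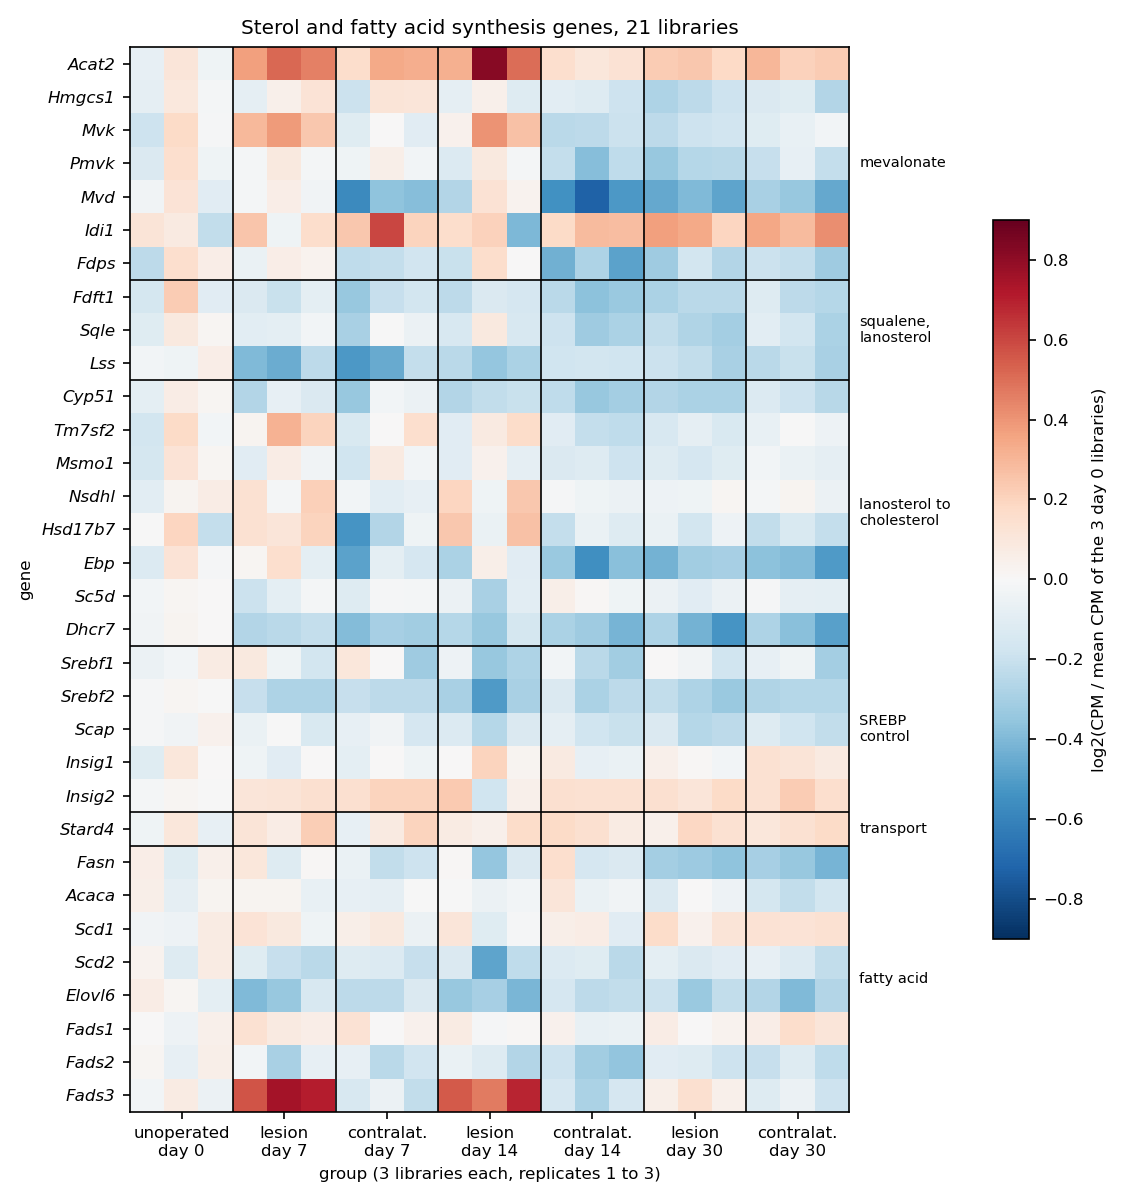
Level of each of the 32 members (down) in each of the 21 libraries (across, 3 per group), as log2 of CPM over the mean of the 3 day 0 libraries, grouped by role. Fads3 stands out in the lesion libraries of days 7 and 14, Mvd is low on the contralateral side at days 7 and 14, and Srebf2, Dhcr7 and Elovl6 are below their day 0 mean in all 18 operated libraries.

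At day 7, 4 members were higher on the lesion side than on the contralateral side and none was lower: Fads3, Mvd, Mvk and Hsd17b7. Over all genes tested, 1.65% were called at an adjusted p under 0.05 (edgeR quasi-likelihood test, Benjamini-Hochberg over all 22294), 1.56% as higher and 0.0942% as lower. At day 14, 6 members were higher and none was lower: Fads3 and 5 mevalonate genes (Mvd, Mvk, Acat2, Fdps and Pmvk), against 3.88% of all genes called, 2.58% as higher and 1.31% as lower. Without the first lesion library of day 14 there were 10 calls, 2 of them lower on the lesion side, Insig2 (-0.20, adjusted p = 0.039) and Sc5d (-0.20, adjusted p = 0.045). At day 30 no member was called in either direction, against 1.16% of all genes called, 1.04% as higher and 0.121% as lower, and 2 members had an unadjusted p under 0.05. DESeq2 and limma-voom also called 0 members at day 30. The median log2 difference over the 32 members was 0.038 at day 7, 0.088 at day 14 and -0.025 at day 30, and over all genes it was -0.0066, 0.00011 and 0.0025 on the same days. Over all members, the 3 lesion libraries lay above all 3 contralateral ones for 9 at day 7, 10 at day 14 and 2 at day 30, where 7.26%, 10.7% and 9.71% of all genes did. They lay below for 0, 4 and 6 members, where 5.26%, 10.5% and 8.28% of all genes did.

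**Figure D2:**
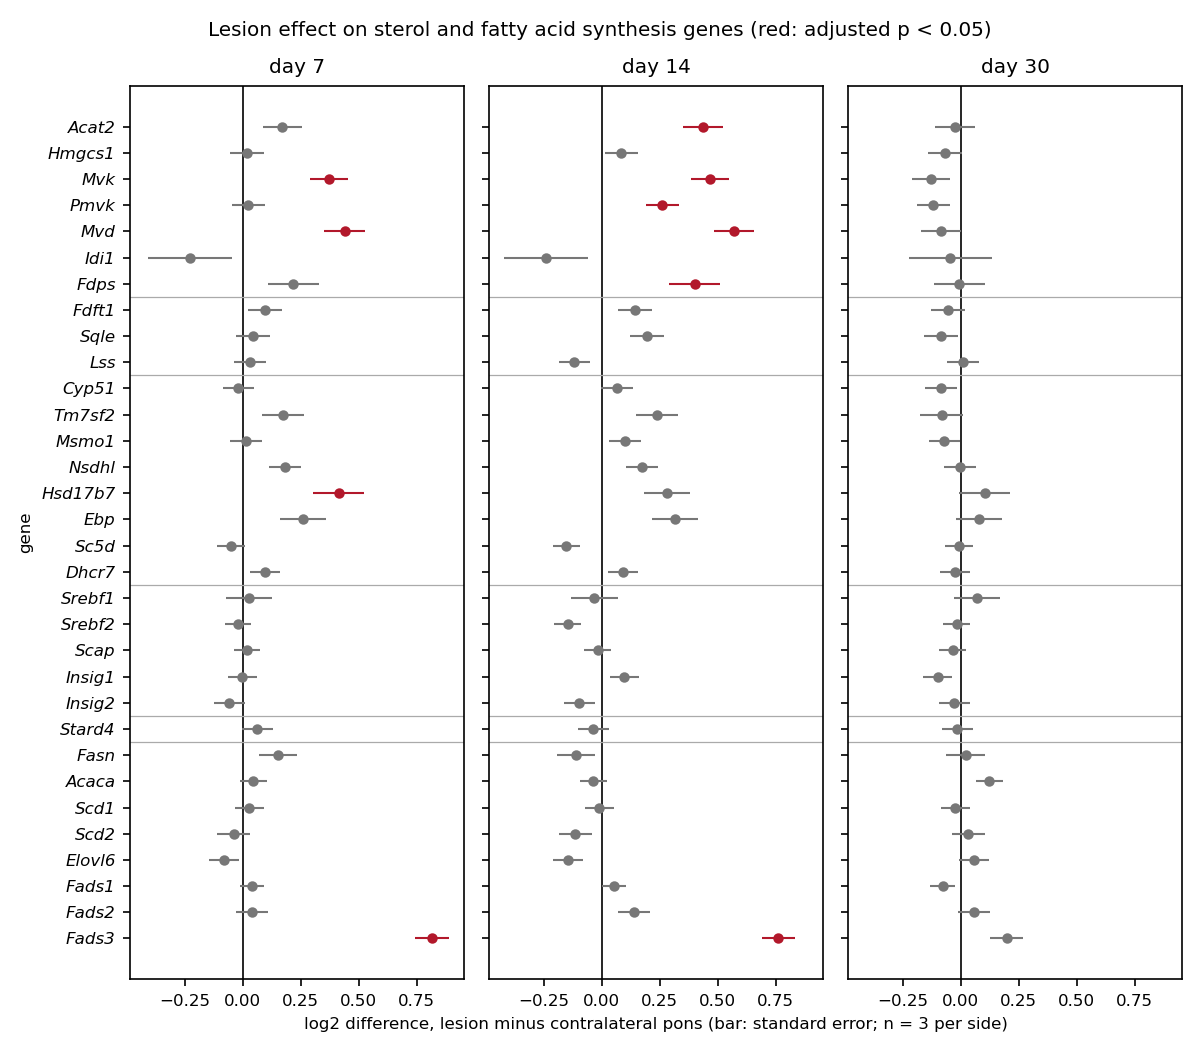
Log2 difference (lesion minus contralateral side) of each of the 32 members at days 7, 14 and 30, with its standard error (3 libraries per side), in the order of the pathway from top to bottom. Red points have an adjusted p under 0.05: 4 at day 7, 6 at day 14 and none at day 30, and all of them lie to the right of 0.

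Fads3 showed the largest lesion difference of the 32 on all 3 days. At day 7 it had 46.1, 52.5 and 50.9 CPM on the lesion side, against 28.2, 30.1 and 26.7 CPM on the contralateral side. Lesion libraries of day 14 had 45.7, 43.1 and 50.1 CPM and contralateral ones 28.1, 25.6 and 28.1 CPM. At day 30 the values were 32.4, 34.5 and 32.1 CPM on the lesion side and 28.8, 30.1 and 27.4 CPM on the contralateral side. The sides did not overlap on any day, and the lesion values of days 7 and 14 lay above those of day 30. The log2 difference was 0.82 ± 0.073 (SE) at day 7, a 1.76-fold higher level (adjusted p = 2.6e-08), and 0.76 ± 0.072 at day 14, 1.7-fold (adjusted p = 5.9e-08). At day 30 it was 0.20 ± 0.073 and did not pass (adjusted p = 0.37). Its neighbours on chromosome 19, Fads2 and Fads1, which make the rate-setting desaturations of polyunsaturated fatty acids, were not called on any day, with log2 differences between -0.079 and 0.14. Fads3 lies at chr19:10041569-10060110 on the plus strand of GRCm38, Fads2 at chr19:10062765-10101746 on the minus strand and Fads1 at chr19:10182888-10196877 on the plus strand, and 0.127% of the possible 50-base reads of Fads3 occur in another gene's transcripts.

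Mvd and Mvk were the mevalonate genes called on both days. Mvd, mevalonate diphosphate decarboxylase (chr8:122433601-122443422, minus strand), had 41.8, 44.1 and 41.5 CPM on the lesion side at day 7, against 28.5, 32.9 and 32.5 CPM on the contralateral side. At day 14 it had 35.2, 46.4 and 43.2 CPM on the lesion side, against 29.0, 25.6 and 29.6 CPM on the contralateral side. On both days every lesion library was above every contralateral one, and the unoperated pons of day 0, at 41.5, 46.1 and 39.4 CPM, lay in the range of the lesion side. The difference was 0.44 ± 0.087 (1.36-fold, adjusted p = 0.0033) at day 7 and 0.57 ± 0.087 (1.49-fold, adjusted p = 9.5e-05) at day 14. At day 30 Mvd had 30.7, 32.2 and 30.4 CPM on the lesion side and 34.6, 33.5 and 30.8 CPM on the contralateral side, which overlap.

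Mvk, mevalonate kinase (chr5:114444269-114460591, plus strand), had 52.9, 56.4 and 51.3 CPM on the lesion side at day 7, against 40.2, 43.5 and 40.4 CPM on the contralateral side. In the lesion libraries of day 14 it had 44.4, 57.2 and 51.9 CPM, against 36.6, 36.8 and 37.8 CPM in the contralateral ones. At day 30 the order was the other way, without a call: 36.7, 38.1 and 38.5 CPM on the lesion side and 40.2, 41.3 and 42.6 CPM on the contralateral side. The difference was 0.37 ± 0.082 at day 7 (1.29-fold, adjusted p = 0.01), 0.47 ± 0.082 at day 14 (1.38-fold, adjusted p = 0.00057) and -0.13 ± 0.082 at day 30 (adjusted p = 0.79). The call of day 7 was lost without the second lesion library (adjusted p = 0.078), the first contralateral one (0.06) or the third contralateral one (0.064).

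The other 3 mevalonate genes called at day 14 are Acat2, the cytosolic thiolase of the first step, Fdps, and Pmvk, phosphomevalonate kinase. Acat2 had 69.4, 98.3 and 78.6 CPM on the lesion side, against 61.7, 59.8 and 60.9 CPM on the contralateral side (0.44 ± 0.085, adjusted p = 0.0022). For Fdps the lesion values were 9.26, 11.9 and 10.7 CPM and the contralateral ones 7.88, 8.77 and 7.63 CPM (0.40 ± 0.11, adjusted p = 0.036). For Pmvk they were 59.7, 69.2 and 64.2 CPM on the lesion side and 56.0, 49.8 and 55.5 CPM on the contralateral side (0.26 ± 0.071, adjusted p = 0.037). The unoperated pons of day 0 had means of 10.7 CPM for Fdps and 65 CPM for Pmvk. For Acat2, Fdps and Pmvk, and also for Mvd and Mvk, the highest lesion value was that of the second library, the one with the low mitochondrial share. Without that library Acat2, Mvd, Mvk and Fads3 stayed called, while Fdps (adjusted p = 0.26) and Pmvk (0.23) did not. Leaving out the second contralateral library also ended the call of Pmvk (0.21), and leaving out the first or the third contralateral or the third lesion library ended both, Fdps at 0.11, 0.14 and 0.078 and Pmvk at 0.055, 0.065 and 0.075. A fit of the day 14 groups alone ended the calls of Acat2 (adjusted p = 0.069), Fdps (0.15) and Pmvk (0.12), and limma-voom that of Fdps (0.05). Of their possible 50-base reads, Acat2 shares 39.1% with other transcripts, chiefly those of the neighbouring copy Acat3, and Fdps shares 26.2%, chiefly with Gm43738, so their values are uncertain to that extent. Pmvk and Mvd share none. The lesion effects of Acat2, Pmvk and Fdps, which were not called at day 7, differed between days 7 and 14 by 0.26 ± 0.12, 0.24 ± 0.10 and 0.18 ± 0.15 without a call (adjusted p = 0.82, 0.82 and 0.86). The remaining mevalonate genes, Hmgcs1 and Idi1, had differences of 0.08 ± 0.072 and -0.24 ± 0.18 at day 14 and were not called.

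The mevalonate steps can also be read as a sum. The 7 genes together came to 641.2, 744.5 and 661.7 CPM in the lesion libraries of day 14, against 610.2, 594.2 and 584.4 CPM in the contralateral ones, which do not overlap. At day 7 the sums were 664.2, 721.5 and 731.1 CPM on the lesion side and 593.7, 707.1 and 697.1 CPM on the contralateral side, which overlap. At day 30 they were 561.7, 580.5 and 587.2 CPM on the lesion side and 617.5, 624.2 and 577.2 CPM on the contralateral side. Hmgcs1 supplies the largest part of each sum and was not called itself. By count, 2 of the 7 were called at day 7 (median log2 difference 0.17), 5 of 7 at day 14 (median 0.40) and 0 of 7 at day 30 (median -0.069, with all 7 below 0). All of these calls were higher on the lesion side, where 1.56%, 2.58% and 1.04% of all genes were called as higher on the 3 days.

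**Figure D3:**
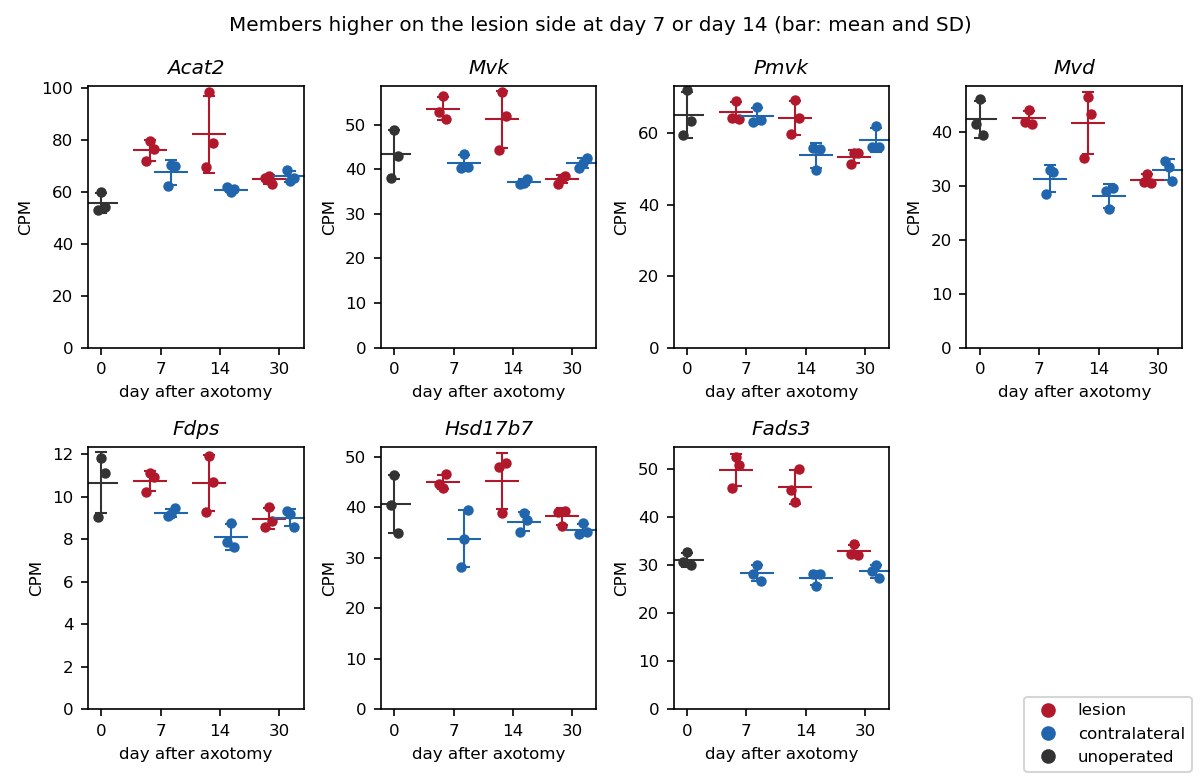
CPM (linear axis from 0) in each library of the 7 members called between the sides at day 7 or 14, against day after axotomy as evenly spaced categories, with day 0 at the left. Points are libraries and bars the mean and SD of 3; Fads3 averaged 49.8 CPM on the lesion side at day 7 against 28.3 CPM on the contralateral side, and 33.0 CPM (lesion) against 28.8 CPM (contralateral) at day 30.

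None of the 3 genes of squalene and lanosterol synthesis was called between the sides on any day. Sqle, squalene epoxidase, a control point of the pathway, had 129, 151 and 129 CPM on the lesion side at day 14, against 125, 114 and 117 CPM on the contralateral side, a difference of 0.20 ± 0.074 that did not pass (adjusted p = 0.14). Fdft1, squalene synthase, differed by 0.14 ± 0.074 (adjusted p = 0.31), and 26.5% of its possible reads also lie in transcripts of other genes, chiefly Ctsb on the opposite strand. Lss, lanosterol synthase, went the other way at day 14, with 55.2, 51.4 and 53.8 CPM on the lesion side below all of 57.9, 58.4 and 57.9 CPM on the contralateral side (-0.12 ± 0.068, adjusted p = 0.36).

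Of the 8 genes from lanosterol to cholesterol, Hsd17b7 was called, at day 7 alone. It encodes the ketoreductase that acts during removal of the methyl groups (chr1:169949535-169969241, minus strand). At day 7 it had 44.6, 43.9 and 46.6 CPM on the lesion side, against 28.1, 33.8 and 39.5 CPM on the contralateral side, where the libraries spread widely (0.41 ± 0.11, 1.33-fold, adjusted p = 0.043). The call was lost without any one of the first (adjusted p = 0.11), the second (0.1) or the third (0.18) lesion library or the first (0.27) or second (0.17) contralateral one, and with limma-voom (0.056) or a fit of the day 7 groups alone (0.069). It held in 7 of 14 alternatives, the replicate block among them (adjusted p = 0.008). At day 14 Hsd17b7 had 48.0, 38.9 and 48.8 CPM on the lesion side and 35.1, 38.9 and 37.5 CPM on the contralateral side (0.28 ± 0.10, adjusted p = 0.14). Ebp, the sterol isomerase, came nearest to a call at day 14, with 26.7, 33.7 and 30.2 CPM on the lesion side against 25.8, 22.1 and 25.0 CPM on the contralateral side (0.32 ± 0.098, adjusted p = 0.069). Nsdhl, the sterol dehydrogenase of the same demethylation complex, had 60.2, 54.2 and 63.7 CPM on the lesion side at day 7 and 54, 51.3 and 52 CPM on the contralateral side (0.18 ± 0.069, adjusted p = 0.39). The change of the lesion effect of Hsd17b7 between days 7 and 14 was not called (-0.13 ± 0.15, adjusted p = 0.9). At day 7 the 3 lesion libraries lay above all contralateral ones for 4 of the 8, as for 4 of the 7 mevalonate genes, where 7.26% of all genes did. The median of the 8 was 0.13 at day 7, and 0.14 at day 14, when 7 of 8 were above 0.

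None of the regulators was called between the sides. Srebf2, which encodes SREBP-2, had 202, 193 and 193 CPM on the lesion side and 202, 198 and 198 CPM on the contralateral side at day 7 (-0.022 ± 0.057). At day 14 it had 191, 164 and 191 CPM on the lesion side, below all of 214, 192 and 198 CPM on the contralateral side (-0.15 ± 0.057, adjusted p = 0.15), with an interval from -0.26 to -0.036. Insig1, which encodes a brake on the complex and is itself an SREBP target, differed by -0.0029 ± 0.062 at day 7 and 0.098 ± 0.062 at day 14. The medians of the 5 control genes were -0.0029, -0.032 and -0.028 on the 3 days. Stard4, a sterol carrier under SREBP-2 control, differed by 0.063 ± 0.067, -0.037 ± 0.066 and -0.015 ± 0.066.

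Apart from Fads3, no gene of the fatty acid group was called between the sides. Fasn, fatty acid synthase, had 459, 395 and 432 CPM on the lesion side at day 7 and 412, 368 and 377 CPM on the contralateral side (0.15 ± 0.082, adjusted p = 0.79), and at day 14 432, 336 and 392 CPM on the lesion side and 475, 386 and 392 CPM on the contralateral side (-0.11 ± 0.082). Scd2 had its lowest value of all 21 libraries, 2390 CPM, in the second lesion library of day 14, against 3040 and 2830 CPM in the other 2 of that group. Elovl6, which elongates saturated fatty acids, lay below the contralateral side at day 14 in all 3 lesion libraries, with 95.8, 98.6 and 91.2 CPM in lesion libraries against 109, 103 and 104 CPM in contralateral ones (-0.15 ± 0.065, adjusted p = 0.22). The 95% intervals of Fasn, Acaca, Scd1, Scd2, Elovl6, Fads1 and Fads2 at day 7 ran from -0.21 to 0.31 on the log2 scale, so a change as large as that of Fads3 lay outside them.

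Whether the lesion difference changed between days was tested as such. From day 14 to day 30 the lesion effect fell for 3 members and rose for none: Mvd by 0.66 ± 0.12 on the log2 scale (adjusted p = 0.029), Mvk by 0.60 ± 0.12 (adjusted p = 0.03) and Fads3 by 0.57 ± 0.10 (adjusted p = 0.023), against 0.0807% of all genes called, all as lower. From day 7 to day 30 it fell for Fads3 by 0.62 ± 0.10 (adjusted p = 0.014), against 0.0269% of all genes. With the replicate number as a block, which the data of days 7 and 30 allow, Mvk was called there as well (-0.50, adjusted p = 0.028), and Fads3 had an adjusted p of 0.0036. Between days 7 and 14 no member was called, against 0% of all genes. There 3 members had an unadjusted p under 0.05, and DESeq2 and limma-voom called 0. The call of Fads3 between days 7 and 30 was lost without any one of 6 libraries (adjusted p from 0.05 to 0.082). The calls between days 14 and 30 were lost without any one of 11 libraries for Mvk (0.067 to 0.12), of 8 for Mvd (0.061 to 0.13) and of 6 for Fads3 (0.067 to 0.12), and limma-voom ended those of Mvk (0.082) and Mvd (0.063). DESeq2 gave no adjusted p for these 3 members in that comparison, so it gives no call for them.

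Other markers moved with the sides. On the lesion side 8 of 8 microglial markers were higher at day 7, 7 of 8 at day 14 and 6 of 8 at day 30, and their level was summed in each library. The sum was 401 to 458 CPM on the lesion side against 264 to 294 CPM on the contralateral side at day 7, 418 to 484 CPM (lesion) against 264 to 280 CPM (contralateral) at day 14, and 447 to 451 CPM (lesion) against 286 to 319 CPM (contralateral) at day 30. Of 7 motor neuron markers, 1, 4 and 2 were lower on the lesion side on the 3 days, and Prph, a filament gene, was higher at day 14. Of 7 neuronal markers, the cytoskeleton genes Stmn2 and Tubb3 were higher at days 7 and 14. On each of these days 4 of the 7 were below 0 without a call, and the list medians were -0.042 and -0.093. None of the 10 oligodendrocyte and none of the 8 astrocyte markers was called between the sides on any day. The part of these cell types in the members' differences was not tested.

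Upstream sequence could be read for 25 of the 32 members in the RefSeq promoter table of GRCm38.p6, in windows from 250 bases before to 50 after the annotated start. SREBPs bind DNA weakly by themselves and are known to act beside NF-Y, which binds CCAAT, and Sp1, which binds GGGCGG. On either strand, CCAAT occurred in 20 of the 25 members with a window (80.0%), against 41.1% of 27025 genes with a window and 41.9% of the 13470 tested genes among them. GGGCGG on either strand occurred in 21 of 25 (84.0%), against 38.2% of all genes and 61.6% of the tested genes. Each motif was searched on its own, so a window can hold both. The sterol element TCACCCCAC occurred in Hmgcs1 alone (4.0%, against 0.614% of all genes and 0.713% of the tested genes), as did the looser TCACNCCAC, which includes it (1.44% of all genes). These matches describe letters in a window and no binding was measured.

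The 250 bases before the start are printed for Fads3 and Mvd, the members with the smallest adjusted p between the sides, and, chosen after their values were seen, for Mvk, which was called beside Mvd, and Hmgcs1, the one with the sterol element. Fads3 is at chr19:10041298-10041547 on the plus strand, Mvd at chr8:122443423-122443672 on the minus strand, Mvk at chr5:114444019-114444268 on the plus strand and Hmgcs1 at chr13:119690101-119690350 on the plus strand (GRCm38.p6). Each is written 5′ to 3′ along its gene, with CCAAT or its reverse ATTGG in capitals, and in Hmgcs1 also the sterol element.
Fads3: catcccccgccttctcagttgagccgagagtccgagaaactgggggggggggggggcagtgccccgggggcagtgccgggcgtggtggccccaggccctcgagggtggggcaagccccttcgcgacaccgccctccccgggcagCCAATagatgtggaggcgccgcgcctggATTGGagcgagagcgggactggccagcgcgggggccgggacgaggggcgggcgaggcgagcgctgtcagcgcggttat
Mvd: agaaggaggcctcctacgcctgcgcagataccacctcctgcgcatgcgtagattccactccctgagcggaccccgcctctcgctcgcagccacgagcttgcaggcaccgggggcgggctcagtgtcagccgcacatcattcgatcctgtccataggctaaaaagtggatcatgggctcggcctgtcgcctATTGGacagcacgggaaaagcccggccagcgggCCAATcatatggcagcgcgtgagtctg
Mvk: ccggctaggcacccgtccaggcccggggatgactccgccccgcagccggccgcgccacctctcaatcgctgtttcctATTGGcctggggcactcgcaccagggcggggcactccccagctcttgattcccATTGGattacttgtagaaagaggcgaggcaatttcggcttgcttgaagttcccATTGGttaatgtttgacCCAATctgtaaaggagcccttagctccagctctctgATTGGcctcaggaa
Hmgcs1: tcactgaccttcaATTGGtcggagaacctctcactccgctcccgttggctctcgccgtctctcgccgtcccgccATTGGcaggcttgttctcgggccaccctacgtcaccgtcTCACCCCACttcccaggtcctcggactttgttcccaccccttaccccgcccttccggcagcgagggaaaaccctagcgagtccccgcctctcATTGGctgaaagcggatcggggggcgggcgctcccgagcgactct
In these stretches Fads3 and Mvd hold 2 CCAAT copies each, Mvk 5 and Hmgcs1 3, and the called Mvk and the uncalled Hmgcs1 thus both carry several.

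Against the unoperated pons of day 0 more members were lower than higher, on both sides of the brain. On the lesion side 3 members were higher and 4 lower at day 7, where 12.5% of all genes were called, 8.14% as higher and 4.32% as lower. At day 14, 3 were higher and 7 lower (16.8% of all genes, 9.78% and 7.03%), and at day 30, 0 were higher and 13 lower (22.4% of all genes, 12.7% and 9.69%). On the contralateral side 1 was higher and 6 lower at day 7 (10.5% of all genes, 6.84% and 3.66%), 0 higher and 11 lower at day 14 (15.8%, 9.09% and 6.73%), and 1 higher and 9 lower at day 30 (16.1%, 9.32% and 6.81%). Libraries did not overlap those of day 0, and lay below them, for 4, 8 and 15 members on the lesion side at days 7, 14 and 30 (13.6%, 13.8% and 19.8% of all genes) and for 9, 16 and 12 on the contralateral side (13.6%, 17.1% and 17.1%). They lay above day 0 for 5, 2 and 3 members on the lesion side (15%, 14.6% and 19.1%) and for 3, 2 and 5 on the contralateral side (12.9%, 16% and 16.2%). The median over the 32 was 0.00076, -0.036 and -0.13 at days 7, 14 and 30 on the lesion side and -0.075, -0.17 and -0.16 on the contralateral side, where all genes had medians between -0.027 and -0.012. The 6 comparisons share the same 3 day 0 libraries and are given side by side for that reason. With the day 0 counts thinned to the mean depth of the other libraries, 7, 10 and 13 members were called on the lesion side and 6, 11 and 9 on the contralateral side. There the calls of Acat2 at days 7 (adjusted p = 0.054) and 30 (0.075) were lost.

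Dhcr7, Srebf2 and Elovl6 were lower than at day 0 in all 6 comparisons. Dhcr7, the reductase that makes cholesterol from its last precursor in 1 branch of the pathway, had 70.2, 71.3 and 72.7 CPM on the lesion side at day 7, 70.5, 66.6 and 75.6 at day 14 and 69.7, 62.8 and 58.4 at day 30, against 82.3, 85.9 and 84.7 CPM at day 0. On the contralateral side its values were 64.3, 68.4 and 67.9 CPM at day 7, 69.1, 67.5 and 63.0 at day 14 and 69.6, 65.1 and 60.0 at day 30. No operated library reached the day 0 range. The largest of these differences were -0.40 ± 0.065 in the lesion pons of day 30 (adjusted p = 4.4e-05) and -0.38 ± 0.065 in the contralateral pons of day 30 (adjusted p = 0.00015).

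For Srebf2, lesion libraries had 202, 193 and 193 CPM at day 7, 191, 164 and 191 at day 14 and 200, 193 and 185 at day 30, and contralateral libraries 202, 198 and 198, 214, 192 and 198, and 194, 196 and 196 CPM on the same days, against 232, 236 and 233 CPM at day 0. The groups did not overlap with day 0 on any day. The differences lay between -0.36 ± 0.057 (lesion, day 14, adjusted p = 4.1e-05) and -0.21 ± 0.057 (contralateral, day 14, adjusted p = 0.0097). Elovl6 had 92.2, 96.0 and 110 CPM in lesion libraries of day 7, 95.8, 98.6 and 91.2 of day 14 and 106, 96.3 and 104 of day 30, against 127, 123 and 114 CPM at day 0 (-0.28, -0.35 and -0.25). Its contralateral values, 103, 103 and 111, then 109, 103 and 104, then 101, 92.1 and 101 CPM, were likewise all below the lowest of day 0. The contralateral calls of Elovl6 at days 7 and 14 were not stable: that of day 7 (-0.20 ± 0.064, adjusted p = 0.041) held in 7 of 14 alternatives. That of day 14 (-0.21 ± 0.064, adjusted p = 0.028) held in 9 of 14. The first was lost with DESeq2's size factors (0.052), the deposited matrix (0.05) or the groups alone (0.11), and without the first or the second day 0 or the first or the second contralateral library (0.09 to 0.15). The other was lost with the groups alone (0.059) and without the first or the second day 0 or the second or the third contralateral library (0.09 to 0.11). Srebf2 lost its call in the contralateral pons of day 14 without the second (0.069) or the third (0.052) contralateral library. Dhcr7 lost its calls on the lesion side at day 7 without the first lesion library (0.054) and at day 14 with the groups alone (0.074).

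Lss had 49.6, 48.0 and 55.6 CPM on the lesion side at day 7 and 45.7, 47.8 and 56.3 CPM on the contralateral side, against 64.2, 63.8 and 68.3 CPM at day 0 (-0.36 ± 0.067, adjusted p = 0.00051, and -0.39 ± 0.068, adjusted p = 0.00021). Later values of Lss lay between 51.4 and 58.4 CPM, and all comparisons but that of the contralateral pons at day 14 were called. The calls of day 30 were lost without the third day 0 library (adjusted p = 0.062 for the lesion side and 0.063 for the contralateral side) or the third library of that side (0.066 and 0.08). Mvd split by side. On the contralateral side it was lower than day 0 on each day, most at day 14 (-0.59 ± 0.086, adjusted p = 1.5e-05), whereas on the lesion side it was lower at day 30 alone (-0.45 ± 0.084, adjusted p = 0.00031) and stood at 100% and 98.3% of its day 0 mean at days 7 and 14. The side difference of Mvd at days 7 and 14 therefore sets lesion levels near those of day 0 beside contralateral levels of 73.9% and 66.3% of day 0. At day 14 Fdps and Pmvk had a like split. Their lesion means were 99.8% and 99.1% of day 0, and their contralateral means 76% and 82.7%.

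Fasn was lower at day 30 on both sides and at no earlier day, with 346, 342 and 333 CPM on the lesion side and 348, 338 and 321 CPM on the contralateral side, against 446, 398 and 442 CPM at day 0 (-0.33 ± 0.082, adjusted p = 0.0045, and -0.35 ± 0.082, adjusted p = 0.0036). The difference between days was not tested. Ebp was lower on the lesion side at day 30 and on the other side at days 14 and 30. The other members called as lower in at least 1 of the 6 comparisons were Cyp51, Fdft1, Scap, Sqle, Pmvk, Fdps, Hmgcs1, Scd2, Fads2 and Acaca, with log2 differences between -0.40 and -0.17 where called. Several of these calls rest on the second day 0 library, in which Fdft1 had 128 CPM, against 98.3 and 102 CPM in the other 2 of day 0. Without it Fdft1 lost all 3 of its calls: its difference was -0.13 in the lesion pons of day 30 (adjusted p = 0.16), -0.11 in the contralateral pons of day 7 (0.33) and -0.18 in that of day 14 (0.063). Also lost without it were Hmgcs1 (0.1), Sqle (0.063) and Ebp (0.058) on the lesion side at day 30, and Cyp51 (0.093) on that side at day 14. Leaving it out also ended, on the contralateral side at day 14, the calls of Pmvk (0.093), Fdps (0.082) and Sqle (0.1), and the count of called members was 6 in place of 11. On the lesion side at day 30, Hmgcs1 was also lost without the first (0.076) or the second (0.056) lesion library, Ebp without the first (0.052), Scap without the second (0.051) and Sqle without the third (0.054). Cyp51 at day 14 was also lost without the third day 0 library (0.062) or the first lesion one (0.066). Scd2 at day 14 was also lost without the third day 0 library (0.051) or the second lesion one (-0.18, adjusted p = 0.061). On the contralateral side, Fdft1 at day 7 was also lost without the first (0.17) or the second (0.076) library. At day 14 on that side Pmvk was lost without the second (0.07), Fdps without the third (0.061) and Sqle without the second (0.081) or the third (0.065) library or the third of day 0 (0.052). In the contralateral pons of day 30 Acaca held its call in 7 and Scap in 6 of 14 alternatives, and Scap in the lesion pons of day 14 in 9 of 14. Mvd on the contralateral side, Fasn at day 30, and Cyp51, Pmvk, Mvd and Dhcr7 on the lesion side at day 30 were called in all 14.

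**Figure D4:**
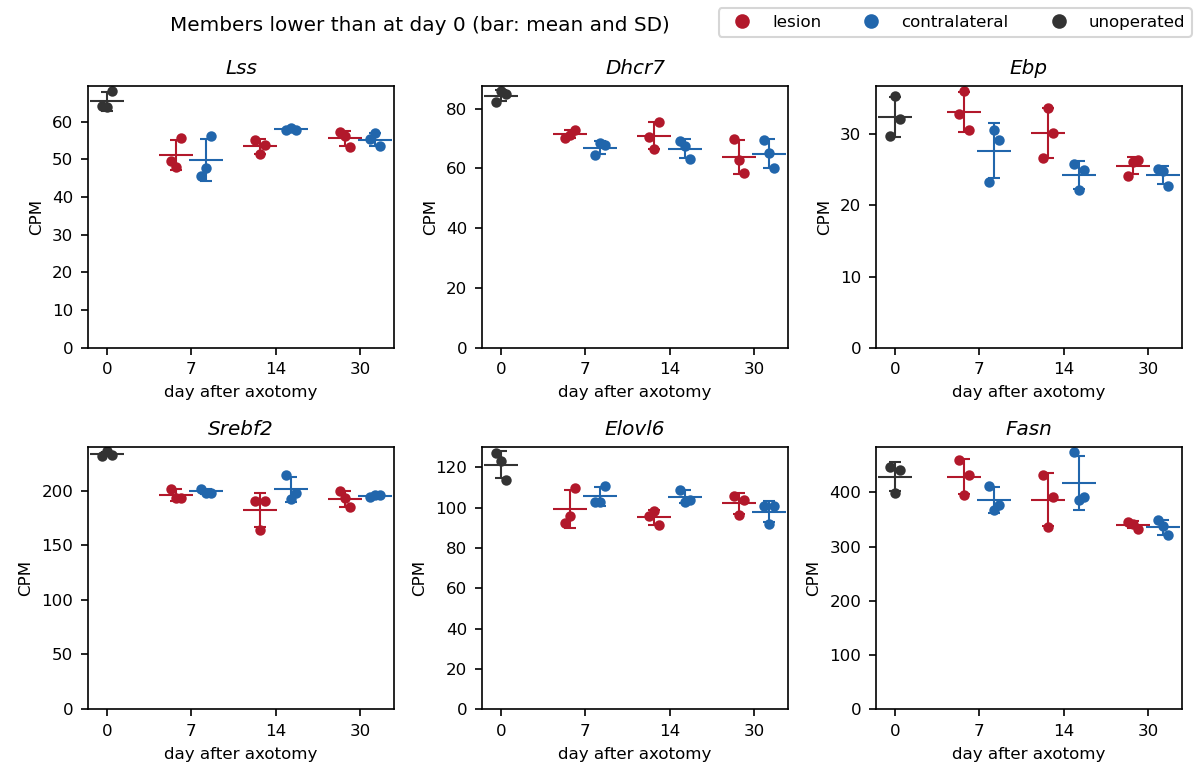
CPM (linear axis from 0) in each library of 6 members that were lower than at day 0, against day after axotomy as evenly spaced categories, with day 0 at the left. Points are libraries and bars the mean and SD of 3; for Srebf2 and Dhcr7 all 18 operated libraries lie under the 3 of day 0 (234 and 84.3 CPM on average), while Fasn is under day 0 on both sides at day 30.

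Few members were higher than at day 0. Fads3, with 30.7, 32.8 and 30.0 CPM at day 0, was higher on the lesion side at day 7 (0.68 ± 0.07, 1.6-fold, adjusted p = 9.8e-08) and day 14 (0.57 ± 0.07, 1.49-fold, adjusted p = 1.2e-06). On the contralateral side it was not called, at 90.9%, 87.6% and 92.4% of its day 0 mean at days 7, 14 and 30. Mvk was higher on the lesion side at days 7 (0.31 ± 0.08, adjusted p = 0.01) and 14 (0.24 ± 0.079, adjusted p = 0.034), where its day 0 libraries had 38.0, 48.9 and 43.0 CPM and the day 14 values overlap them. Its call of day 7 was lost without the first day 0 library (adjusted p = 0.086) or the second lesion one (0.058). Its call of day 14 was lost in a fit of those groups alone (0.2) and without the first (0.21) or the third (0.079) day 0 library or the second (0.21) or the third (0.091) lesion one. Without the first day 0 or the second lesion library the difference was 0.16. Acat2 had 71.8, 79.6 and 76.2 CPM on the lesion side and 62.0, 70.4 and 69.8 CPM on the contralateral side at day 7, and 65.2, 65.9 and 62.9 CPM on the lesion side and 68.4, 64.1 and 65.1 CPM on the contralateral side at day 30, against 52.9, 59.9 and 54.0 CPM at day 0. It was called as higher on the lesion side at days 7 (0.45 ± 0.084, adjusted p = 5e-04) and 14 (0.56 ± 0.083, adjusted p = 2.3e-05) and on the contralateral side at days 7 (0.28 ± 0.084, adjusted p = 0.033) and 30 (0.24 ± 0.084, adjusted p = 0.048). The contralateral calls were not stable: that of day 7 held in 9 of 14 alternatives and was lost without the first or the third day 0 library or the second or the third contralateral one (adjusted p from 0.11 to 0.13). That of day 30 held in 6 of 14 and was lost with limma-voom or the deposited matrix (0.056 each) and without the first or the third day 0 library or any one of the 3 contralateral ones (0.065 to 0.16). Insig2 and Fads1, next in that order on the contralateral side, reached 0.18 ± 0.066 at day 7 (adjusted p = 0.081) and 0.11 ± 0.052 at day 30 (adjusted p = 0.16) and were not called.

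Most oligodendrocyte markers moved the same way against day 0, though 2 of 10 were above 0 at day 30 on each side, without a call. Of 10, none was higher and 6, 6 and 5 were lower on the lesion side at days 7, 14 and 30, and 3, 6 and 5 on the contralateral side. Their summed level was 27100 to 30000, 26800 to 30700 and 29700 to 31300 CPM on the lesion side and 27300 to 31200, 25300 to 30100 and 30000 to 32200 CPM on the contralateral side, against 32900 to 35100 CPM at day 0. Endothelial and mural markers were lower too, 3 or 4 of 7 in each of the 6 comparisons, as were 2 or 3 of 5 oligodendrocyte precursor markers. Neuronal markers were mixed, and those called were all higher than at day 0. Of 7, none was called as lower, and 3, 3 and 2 were higher on the lesion side at days 7, 14 and 30. On the contralateral side 1, 2 and 1 were higher, with Snap25 called in all 6 comparisons. Below 0 without a call were 2, 1 and 4 of the 7 on the lesion side and 2, 2 and 4 on the contralateral side. The list medians were 0.13, 0.086 and -0.061 (lesion) and 0.087, 0.014 and -0.019 (contralateral). The mitochondrial share of counts was 5.84 to 7.29% in the 6 libraries of day 30, against 3.05 to 3.6% at day 0. The part of these shifts in the members' differences was not tested, and the age, the sequencing lane or run and the operation differ from day 0 on every day and cannot be told apart.

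Neighbouring pathways were read from 5 lists. Of 19 genes of sterol export, uptake and turnover, Abca1, the transporter that loads cholesterol onto apolipoproteins, was higher on the lesion side on all 3 days: 70.2 ± 5.1 CPM (lesion) against 30 ± 2.3 CPM (contralateral) at day 7 (1.23 ± 0.16, adjusted p = 0.00023), 73.3 ± 12 CPM (lesion) against 34 ± 3.5 CPM (contralateral) at day 14 (1.11 ± 0.16, adjusted p = 0.00042) and 62.4 ± 3.4 CPM (lesion) against 31.7 ± 2.5 CPM (contralateral) at day 30 (0.98 ± 0.16, adjusted p = 0.0032), each as mean ± SD of 3 libraries. It was also higher on the lesion side than at day 0 on each day. Npc2, which moves cholesterol out of lysosomes, was higher at day 14 (177 ± 13 CPM on the lesion side against 142 ± 3.6 CPM on the contralateral side, 0.32 ± 0.065, adjusted p = 0.0037), and the other members of the list were not called between the sides. Against day 0, Npc2 was called as lower in the contralateral pons of day 14 and was not called in the lesion pons of that day. Medians of the list between the sides were 0.037, 0.026 and 0.086.

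Of 16 genes of acetyl-CoA supply and further fatty acid synthesis, 1 was called between the sides: Acly, which splits citrate to acetyl-CoA, was lower on the lesion side at day 14 (548 ± 39 CPM, against 668 ± 48 CPM on the contralateral side, -0.28 ± 0.069, adjusted p = 0.017). None of 10 genes of the isoprenoid branch, of 15 of fatty acid oxidation or of 7 of SREBP cleavage and sterol-sensing degradation was called between the sides on any day, with list medians between -0.058 and 0.032. Against day 0, 2, 2 and 4 of the 16 were higher and 3, 5 and 5 lower on the lesion side at days 7, 14 and 30, where 8.14%, 9.78% and 12.7% of all genes were called as higher and 4.32%, 7.03% and 9.69% as lower. On the contralateral side 1, 2 and 2 were higher and 4, 4 and 5 lower, where 6.84%, 9.09% and 9.32% of all genes were higher and 3.66%, 6.73% and 6.81% lower. Elovl4, an elongase of very long chain fatty acids, was higher in all 6 comparisons, and Acsl4, which activates polyunsaturated fatty acids, in 5. Elovl1, Acsl1 and Fa2h, enzymes of very long chain, activated and hydroxylated fatty acids, were lower in all 6.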

How the data were processed

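Messenger RNA of 21 libraries of mouse ventral pons was sequenced (TruSeq Stranded mRNA kit, 300 ng RNA, single reads of 50 bases), per the labels' protocols and the series' design text. Per the series' design text and the submitters' processing notes, the authors used CASAVA 1.8.2, the Rsubread aligner with its defaults, GRCm38.p4, a GENCODE annotation and featureCounts; the strand setting is not given in the sources used here, so reads of genes on opposite strands may be shared. The deposited count table holds raw counts per gene symbol, and the deposited matrix holds the authors' log2 CPM from limma's voom, used here in an alternative. Symbol columns of the deposited tables (other text) served to find the genes, and 0 per-sample columns were unused.

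Genes were kept as the authors state, with a summed count above the 32nd percentile (29), which left 22294 of the 32815 with a count, the lowest with 30. CPM are counts scaled by the library total and TMM factor. Tests used edgeR 4.0.16 in R 4.3.3 (robust quasi-likelihood F-test, two-sided, 1 coefficient per group, all 21 libraries), with Benjamini-Hochberg adjustment over all genes tested in each of 12 comparisons and a call at an adjusted p under 0.05. Standard errors are of the log2 difference, and intervals are 95%. With 3 libraries a side, the smallest p of an exact permutation test is 0.1. The test between the sides at day 14 was run on simulated counts with known changes. Those changes were larger than many called here, and the other comparisons were not simulated. Depth ranges are in the report; counting error is 1 part of the spread, and reads carry no molecular identifiers.

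The members and lists were chosen with earlier results of these data known. Library values are given for each member called between the sides or in a lesion effect difference, and for the 3 higher and 3 lower members with the smallest adjusted p against day 0 on each side; others were chosen after their values were seen. Alternatives were DESeq2 1.42.0, its size factors in edgeR, limma-voom (limma 3.58.1), limma on the deposited matrix, no filter, edgeR's filterByExpr, a fit of the groups compared alone, each library left out, a replicate block and, chosen after seeing the data, thinned day 0 counts. Replicate numbers of the sides come from the labels, which do not say that they mark an animal. After group means were removed, libraries with the same number correlated at 0.18 to 0.3 at day 7, -0.023 to 0.25 at day 14 and 0.2 to 0.24 at day 30 across genes. A pairing could therefore be read at days 7 and 30. The main tests did not pair libraries, and the replicate block is the alternative that does. No 2 libraries were duplicates (highest correlation of log counts 0.99307). Positions and the share of possible 50-base reads found in other genes' transcripts come from a GENCODE annotation of GRCm38, and promoters from RefSeq (GRCm38.p6).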

Additional observations from a re-analysis of the deposited data

Results flagged for a closer look

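In 4 cases the lesion difference of a member changed between days by a test of the change itself. That of Fads3 changed by -0.619 on the log2 scale between days 7 and 30, and by -0.565 between days 14 and 30. That of Mvd changed by -0.656 and that of Mvk by -0.6 between days 14 and 30. At day 30 the side differences themselves were 0.20 for Fads3, -0.085 for Mvd and -0.13 for Mvk, none of them called. The size of each change depends on the assignment of the day 30 columns to the sides. With the columns as assigned, microglial markers at day 30 summed to 447 to 451 CPM on the lesion side and 286 to 319 CPM on the contralateral side. The sequencing lane or run and the age of the mice also changed with the day and cannot be told apart from it.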

How the results depend on the processing

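Over all 12 comparisons, 1029 values of called members were recomputed under the alternatives: 879 kept their call, 150 lost it and 0 changed direction. Mvd and Fads3 at days 7 and 14, and Mvk at day 14, were called in all 14 alternatives. Counts of called members that moved by over 1.5 times were as follows. With the groups compared alone, 3 members (not 6) were called between the sides at day 14, 5 (not 10) between the lesion pons of day 14 and day 0, and 3 (not 1) for the change of the lesion effect between days 7 and 30. That last count was 3 with DESeq2, 3 with no filter and 2 with the replicate block. For the change between days 14 and 30, 5 members were called with no filter, 1 with limma-voom and 5 with the replicate block, against 3, and DESeq2 gave no adjusted p there for 8 members, the 3 called ones (Mvk, Mvd and Fads3) among them, while it called Pmvk (0.036) and Acat2 (0.034). With 1 library left out, counts ran from 2 to 3 between the sides at day 7, 4 to 10 at day 14 and 0 to 0 at day 30. Without the second lesion library of day 14 the count of that day was 5 and included Nsdhl, and without the first it was 10, of which Insig2 and Sc5d were lower on the lesion side. Against day 0 they ran from 6 to 9, 6 to 10 and 10 to 16 on the lesion side and 4 to 7, 6 to 12 and 6 to 11 on the contralateral side at days 7, 14 and 30. For changes of the lesion effect they ran from 0 to 0 (days 7 and 14), 0 to 1 (days 7 and 30) and 0 to 5 (days 14 and 30). A pairing of equal replicate numbers at day 14 is a hint at most; with the block 7 members were called there, Ebp in addition (adjusted p = 0.04). Beyond the counts named here, the block changed no call between the sides at days 7 and 30. Over all genes, 866 were called between the sides at day 14, 1983 without the first lesion library, 435 with the groups compared alone and 432 without the second contralateral one. The cause of these shifts was not tested. With 3 libraries a side, the smallest side difference that was called was 0.26 on the log2 scale (Pmvk at day 14).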
